A study of Arabidopsis thaliana with 24 samples.

Results

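In wild-type Arabidopsis seedlings, 76 genes had mean counts that were raised over mock by 2e, a stereoisomer of coronatine (2), and by 12, a further coronatine derivative, and raised less or lowered by coronatine itself. They were chosen from the mean normalized counts of the wild type Col-0. The log2 ratio of treated to mock, with 5 added to each mean, had to be at least 0.6 for 2e and for 12. Each ratio had to exceed that of 2 by at least 0.4, and the mean with 2e had to be at least 50. Of 27416 genes in the table, 15360 reached that mean, 368 of these passed both ratio thresholds, and 76 passed all. All 76 passed the count filter of the tests described here. The Col-0 libraries therefore chose the genes, and every Col-0 value is given as a description. Tests were made only in jaz9-1, whose libraries took no part in the choice.

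The libraries came from whole seedlings of the ecotype Col-0, either wild type or jaz9-1, a line in that background with a T-DNA insertion in JAZ9. All seedlings were 6 days old, were grown in diluted liquid Murashige-Skoog medium, and received mock medium, 2, 2e or 12 for 8 h. There are 8 groups with 3 libraries apiece, and each library pooled 5 to 8 seedlings. The concentration of 1 µM stands in the series text alone. The labels do not tell whether the 3 libraries of a group come from separate cultures, so p-values measure the spread between these libraries. The jaz9-1 genotype is represented by 1 insertion line. Because whole seedlings were used, a change in the share of a tissue and a change in RNA per cell cannot be told apart.

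Coronatine is a bacterial mimic of jasmonoyl-isoleucine, the active jasmonate. Both join the F-box protein COI1 to JAZ repressors, which are then degraded, and the transcription factors held by the JAZ proteins are released. In Arabidopsis the jasmonate response has a MYC branch of wound and insect defense and an ERF branch, shared with ethylene, of defense against necrotrophic fungi. ORA59 and ERF1 activate the ERF branch through the GCC box, and the defensin PDF1.2 is its usual marker. MYC factors restrain this branch, and other JAZ targets, among them MYB factors, govern glucosinolates and pigments.

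Because ERF factors bind the GCC box, the stretch before each gene start was searched for it, and 4 of the windows that hold it are printed here as examples. Windows of 250 bases before the annotated gene start were read from RefSeq TAIR10.1 for all 76 genes and for 19914 of the tested genes. The box GCCGCC, searched on both strands, occurred in 9 windows of the 76 genes (11.8%) and in 1.94% of all windows. PDC2, AT4G38540, AT4G18205 and MAP65-5 also held it, as did WRKY33, and in 3 of the 9 (PDC2, AT4G38540 and AT4G18205) the window runs into another gene. The windows below overlap no other gene, are written 5′ to 3′ toward the gene start, and carry the box in capitals.
PDF1.2b (chr2:11088873-11089122, plus strand): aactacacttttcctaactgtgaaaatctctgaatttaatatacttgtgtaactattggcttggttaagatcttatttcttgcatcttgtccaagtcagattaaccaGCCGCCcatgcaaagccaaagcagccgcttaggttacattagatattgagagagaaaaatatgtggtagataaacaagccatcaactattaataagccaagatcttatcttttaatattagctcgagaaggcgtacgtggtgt
AACT1 (chr5:24608355-24608604, plus strand): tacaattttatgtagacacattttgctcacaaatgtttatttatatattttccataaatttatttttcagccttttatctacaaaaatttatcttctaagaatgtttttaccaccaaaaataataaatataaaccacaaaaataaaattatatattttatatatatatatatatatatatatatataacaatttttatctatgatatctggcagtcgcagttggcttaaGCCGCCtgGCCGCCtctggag
ORA59 (chr1:1882657-1882906, plus strand): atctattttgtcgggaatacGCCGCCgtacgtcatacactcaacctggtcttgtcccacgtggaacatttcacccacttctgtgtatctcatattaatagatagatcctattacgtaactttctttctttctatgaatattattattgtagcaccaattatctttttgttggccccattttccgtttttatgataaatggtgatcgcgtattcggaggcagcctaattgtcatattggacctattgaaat
OSM34 (chr4:7026225-7026474, minus strand): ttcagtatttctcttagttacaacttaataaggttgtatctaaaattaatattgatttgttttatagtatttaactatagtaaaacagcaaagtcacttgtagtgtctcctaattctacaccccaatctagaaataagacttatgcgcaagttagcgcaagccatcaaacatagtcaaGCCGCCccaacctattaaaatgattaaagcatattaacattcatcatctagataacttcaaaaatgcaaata
AACT1 carried 2 copies, whose first bases lie 21 and 13 bases before the gene start, and PDF1.2b, ORA59 and OSM34 carried 1 each, at 143, 230 and 72 bases. The adjacent defensin gene PDF1.3 had no copy in its window. The G-box CACGTG, a MYC site, was in 6 windows (7.89%, against 7.34% of all), and the W-box TTGACC, a WRKY site, was in 9 (11.8%, against 12.1%). Of the AC elements bound by MYB factors, ACCAACC and ACCTACC were in 1 window each (1.32%, against 2.80% and 1.22%). The evening element AAATATCT, a clock MYB site, was in 4 windows (5.26%, against 4.97%). ACCAACC and ACCTACC can share end bases, and a match describes the letters only. In jaz9-1, 3 of the 9 genes with a GCC box and 16 of the 67 without were called higher with 2e than with mock by the test described below for that line, and with 2 these were 4 and 14.

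In Col-0 the 76 genes had like ratios with 2e and with 12 and spread widely with 2. The median log2 ratio was 1.09 with 2e (range 0.61 to 5.71) and 1.1 with 12 (0.60 to 5.02), and in 65 genes the ratios of 2e and 12 lay within 0.3 of each other. With 2 the median was -0.08 (range -2.28 to 3.58). It was negative in 40 genes, at most -0.6 in 20 and at least 0.6 in 8. Over the 15360 genes with that mean, the medians were -0.01 with 2e, -0.00 with 12 and -0.01 with 2. The rule fixes the direction of these values and the distance to 2. It also asks for a high ratio with both 2e and 12, and both ratios share the mock mean, which favors like values. The share of all genes with ratios of 2e and 12 within 0.3 was not counted, so whether 65 is many is not known. All 3 libraries with 2e lay above all 3 mock libraries in 65 genes, and all 3 with 12 in 72, where 9.15% and 9.56% of all tested genes did so. All 3 libraries with 2 lay below mock in 20 genes (17.7% of all tested genes). The libraries of 2e lay above those of 2 in 67 genes (16.1%) and those of 12 in 72 (16.3%), which the rule itself favors.

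At the edge of the rule, ERF104 was included with a ratio of 0.602 for 12, CNI1 with 0.610 and AT5G61590 with 0.610 for 2e. Just outside were AT1G08940 (0.599 for 12), AT2G38010 (0.596) and PCR2 (0.595). In 11 genes, CYP71A12 and AT4G33720 among them, the 2e libraries overlapped mock. With 2e in Col-0, CYP71A12 had normalized counts of 289, 11 and 20.6 over mock counts of 31.6, 9.24 and 30.7, and AT4G33720 had 1781, 269.7 and 1288 over 389, 428 and 473. Replicate 1 alone carried the mean of CYP71A12.

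The sequencing depth was 6226126 to 29404141 counts per library, with medians of 17711088 in Col-0 and 11388946 in jaz9-1, so jaz9-1 values of low genes are less certain. JAZ9 had normalized counts of 2313 to 2557 with 2 in Col-0 and 512.0 to 728 in jaz9-1, without overlap. With mock it had 41.1 to 67.7 in Col-0 and 30.3 to 49.7 in jaz9-1, and these overlapped. The 5 shoot and 6 root markers were detected in all groups. The summed CPM (counts scaled to a common library size) of the root markers were 5636 to 5933 with 2 against 2686 to 3202 with mock in Col-0, and 6287 to 7102 against 3548 to 4566 in jaz9-1. PYK10, a root beta-glucosidase, made up most of that sum, and without it the sums with 2 and mock were 81.5 to 91.9 and 91.6 to 106.7 CPM in Col-0, and 103.0 to 107.0 and 98.4 to 117.5 CPM in jaz9-1. With 2e that sum was 82.2 to 93.8 CPM in Col-0 and 86.2 to 104.9 CPM in jaz9-1. With 12 it lay below mock in both genotypes without overlap, at 65.3 to 82.3 CPM in Col-0 and 85.9 to 97.3 CPM in jaz9-1. The root endodermis markers in jaz9-1 were below mock (46.8 to 70.8 CPM) with 12 (34.9 to 40.6 CPM) and with 2 (37.9 to 43.4 CPM). The shoot markers in Col-0 were below mock (25764 to 26963 CPM) with 12 (20840 to 24342 CPM) and with 2 (24917 to 25759 CPM). In jaz9-1 the shoot markers were above mock (23371 to 24211 CPM) with 2 (26831 to 32410 CPM). Phloem markers were above mock with 2 in both genotypes. Their sums were 247 to 253 against 194 to 196 CPM in Col-0, and 194 to 281 against 120 to 170 CPM in jaz9-1. In Col-0 they were also above mock with 12 (214 to 224 CPM). The part of these levels in the results was not tested.

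**Figure D1:**
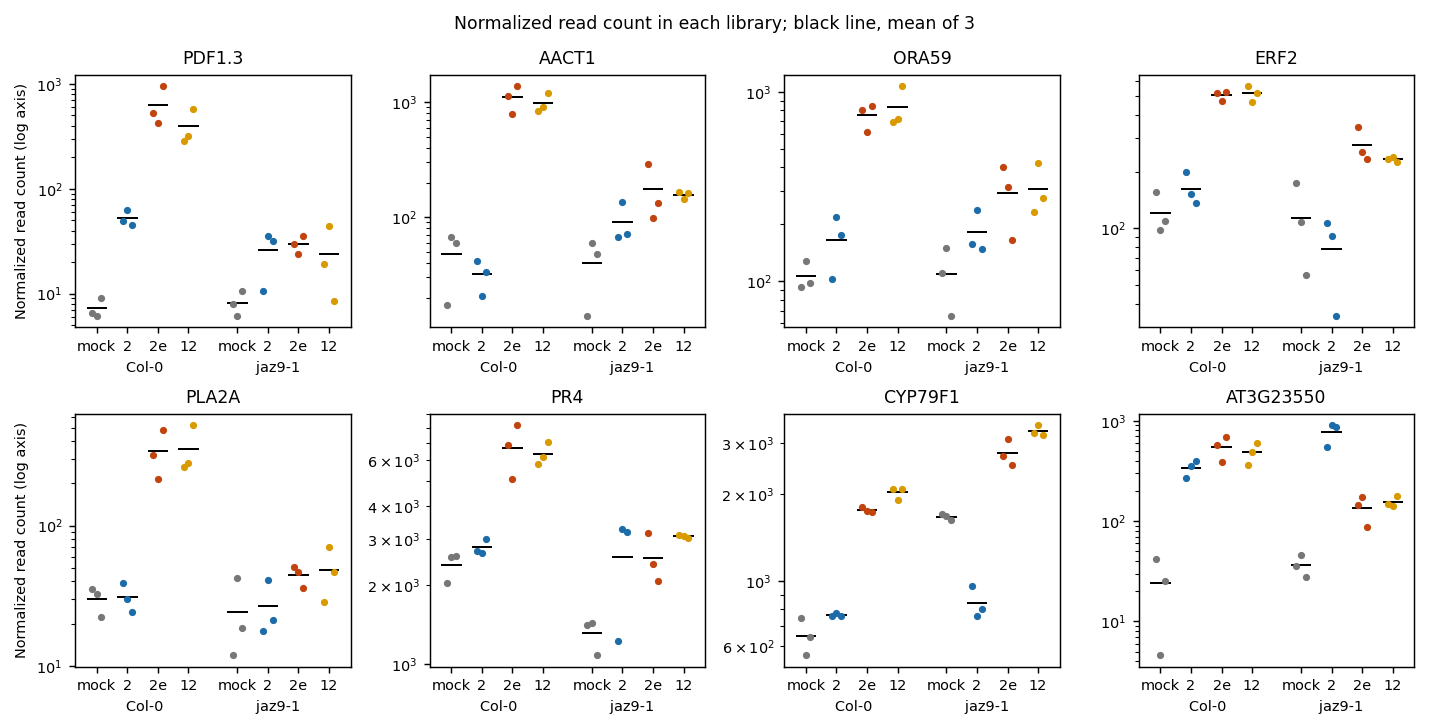
Normalized read count (log axis) of 8 of the 76 genes in each of the 24 libraries, in Col-0 (left) and jaz9-1 (right). Points are libraries and black lines are group means. With 2e, PDF1.3 reached 424 to 954 in Col-0 and 23.9 to 35.4 in jaz9-1, while CYP79F1 with 2 fell below mock in jaz9-1 alone.

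In jaz9-1, ORA59, ERF2, AACT1, PR4 and CYP79F1 were among the genes that rose with both 2e and 12. With 2e, 19 of the 76 genes were higher than with mock and 0 were lower, at an adjusted p below 0.1 by the quasi-likelihood F-test of edgeR. Among all 20109 tested genes, 1.73% were higher and 0.244% lower. With 12, 20 were higher and 0 lower, where 2.01% and 0.482% of all tested genes were. The log2 fold change was above 0 in 66 genes with 2e and in 71 with 12, with medians of 0.57 and 0.59. At an unadjusted p below 0.05, 33 genes were higher with 2e and 36 with 12, and 0 were lower with either compound. DESeq2 called 0 lower. The shares of all tested genes at the unadjusted limit and with DESeq2 were not counted. As few of all tested genes were called lower, a count of 0 among the 76 does not set them apart. All 3 libraries with 2e lay above mock in 33 genes (7.63% of all tested genes), and all 3 with 12 in 38 (8.26%). They lay below mock in 0 genes with 2e (6.28%) and 1 with 12 (6.84%). Both comparisons use the same mock libraries. The spread was estimated over all 24 libraries, Col-0 included, and with the jaz9-1 libraries fitted alone 15 genes were higher with 2e and 15 with 12. The count with 2e was 12 without jaz9-1 mock replicate 1, and 12 of the 19 genes were called without each of the 6 libraries in turn. For 12, 12 of the 20 were.

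The ratios of jaz9-1 were lower than those of Col-0 in most genes, a direction that choosing genes by high Col-0 values favors. The median log2 ratio in jaz9-1 was 0.58 with 2e and 0.58 with 12, and the ratio was smaller than in Col-0 in 70 and 71 genes. Levels with 2e in jaz9-1 were a median of 58.0% of those in Col-0, and with 12 they were 62.7%. Under mock the median was 0.956 times the Col-0 level. With 2, where the rule favors low Col-0 values, it was 130%, and 53 genes were higher in jaz9-1. With 2e, 45 genes had all jaz9-1 libraries below all Col-0 libraries (10% of all tested genes) and 2 above (9.17%). With 12 these were 46 (9.92%) and 5 (10.2%). Under mock, 5 genes had all Col-0 libraries above jaz9-1 (8.67%) and 11 the reverse (8.99%), and with 2, 26 genes had all jaz9-1 libraries above Col-0 (9.94%) and 6 the reverse (10%). No test of these differences was made, because they contain the Col-0 libraries. Both thresholds of the rule for the ratios were met in jaz9-1 by 13 genes. The share of all genes that met them in jaz9-1 was not counted, so whether 13 is many or few is not known.

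**Figure D2:**
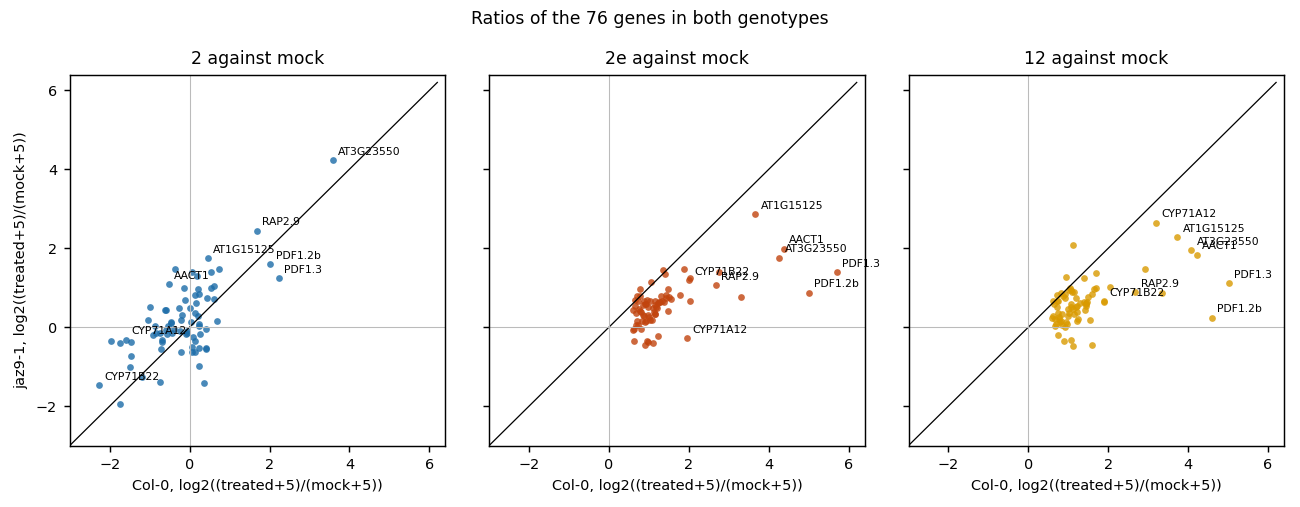
Log2 ratio of treated to mock (5 added to each mean) in Col-0 (x axis) and jaz9-1 (y axis) for the 76 genes with 2, 2e and 12, each point a gene and the line equality. The genes lie below the line for 2e (70 of 76) and 12 (71), and above it for 2 in most cases (smaller in 24). PDF1.3 and PDF1.2b are among those far below it with 2e and 12.

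The difference between the compounds was tested directly in jaz9-1, in 3 pairs. With 2e, 29 genes were higher than with 2 and 3 lower, where 12.2% and 13.3% of all tested genes were. The median log2 difference was 0.47. With 12, 24 were higher than with 2 and 5 lower, where 11.4% and 12.8% were, and the median was 0.51. Without overlap, 2e lay above 2 in 24 genes (13.8%) and below in 3 (15.4%), and 12 lay above 2 in 24 (13.6%) and below in 3 (15.1%). The 2e comparison held for 16 of the 29 genes, and the 12 comparison for 18 of the 24, when each library was left out in turn. Coronatine alone raised 18 genes above mock and lowered 11 in jaz9-1, where 14.9% and 14.2% of all tested genes were. These are 23.7% and 14.5% of the 76 genes. The libraries of 2 lay above mock in 15 genes (15.8%) and below in 6 (14.8%).

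Between 2e and 12, none of the 76 genes passed the test in jaz9-1 with edgeR. With edgeR the count was 0 in both directions, where 0.0547% and 0.00995% of all tested genes were called higher and lower with 2e. With DESeq2 it was also 0 in both directions, and the share of all tested genes was not counted. At an unadjusted p below 0.05, 3 genes were higher with 2e and 2 lower, and the share of all tested genes at that limit was not counted. The libraries of 2e lay above those of 12 in 4 genes (5.9% of all tested genes) and below them in 4 (5.95%). The log2 difference ranged from -3.35 to 1.02 with a median of -0.00. Its 95% interval reached 0.61 to either side in the median gene and up to 1.75, and in 52 of the 76 genes the interval lay within -1 and 1. For the other 24 a difference of 2-fold or more lies within the interval. CYP71A12 had the lowest value (adjusted p = 0.31). Without the count filter edgeR called it (adjusted p = 9.3e-13) and AT4G33720 (-0.67, adjusted p = 0.00099) lower with 2e than with 12.

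**Figure D3:**
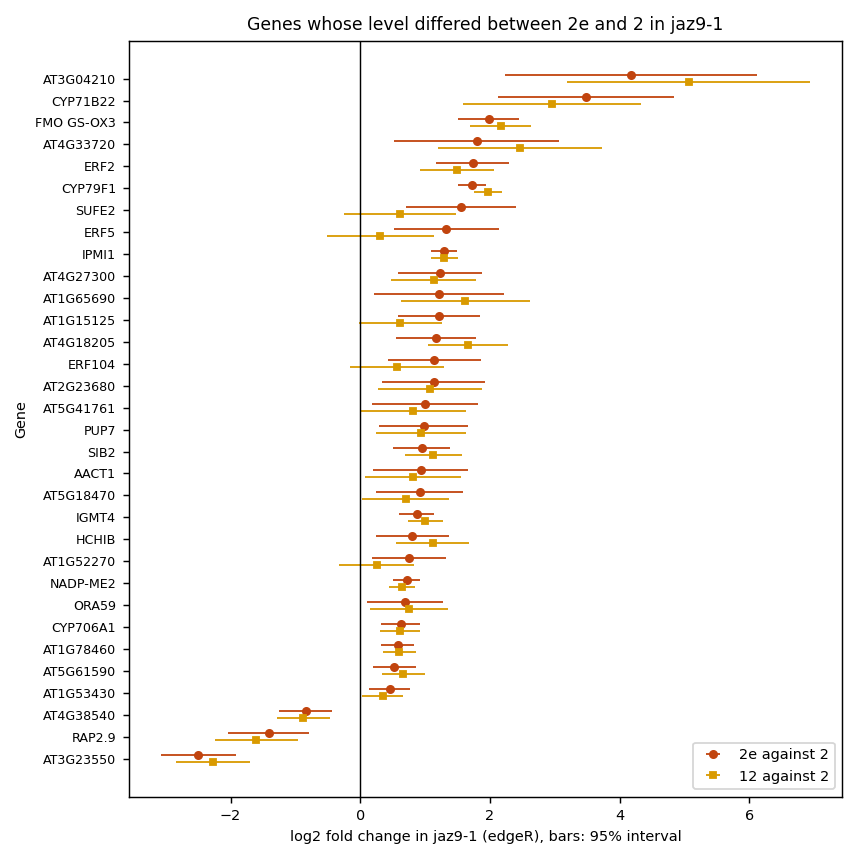
Log2 fold change in jaz9-1 of 2e against 2 (circles) and 12 against 2 (squares) with 95% intervals, for the 32 genes whose level differed between 2e and 2 at an adjusted p below 0.1. Among the 29 higher genes are CYP71B22 (3.48) and AT3G04210, whose size depends on the prior count because 2 libraries with 2 held no read. AT3G23550 (-2.49) is the lowest of the 3 lower genes.

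The transcription factor and signaling genes, 12 in number, included the regulators of the ERF branch. In jaz9-1, 5 of the 12 were higher with 2e and 5 with 12, with medians of 0.73 and 0.49, and 2 were higher and 1 lower with 2. This grouping by function was made after the values were seen. Of all tested genes, 1.73%, 2.01% and 14.9% were higher with 2e, 12 and 2, and 0.244%, 0.482% and 14.2% were lower. These shares stand beside the counts against mock of each gene group and list below. With 2, the counts of these 12 genes do not set them apart. ORA59, the activator of the ERF branch, had normalized counts with mock, 2, 2e and 12 in Col-0 of 93.4, 128 and 98.3, then 104, 219 and 175, then 805, 612 and 842, and finally 698, 720.3 and 1075. In jaz9-1 they were 111, 149 and 65.9 with mock, 157, 238 and 149 with 2, 401, 316 and 166 with 2e and 232, 420.5 and 274 with 12. The libraries with 2e and with 12 lay above mock in both genotypes, and all jaz9-1 libraries with 2e or 12 lay below those of Col-0. The log2 fold change in jaz9-1 was 1.4 (SE 0.30, adjusted p = 0.0061) with 2e and 1.46 (SE 0.30, adjusted p = 0.0037) with 12. With 2 it was 0.71 (SE 0.32, adjusted p = 0.11), and this passed the test in 5 of 11 other settings (adjusted p from 0.0018 to 0.0967), namely without the count filter, with the replicate number as a block, and without jaz9-1 mock replicate 2 or 2 replicates 1 or 3. The difference between 2e and 2 was 0.69 (SE 0.29, adjusted p = 0.0954), and this call was lost without jaz9-1 2 replicates 1 or 3 or 2e replicates 1 or 2 (adjusted p from 0.21 to 0.42) and with the jaz9-1 libraries fitted alone (adjusted p = 0.14). That between 12 and 2 was 0.75 (adjusted p = 0.072), lost without jaz9-1 2 replicates 1 or 3 or 12 replicate 2 (adjusted p from 0.19 to 0.33) and with the jaz9-1 libraries fitted alone (adjusted p = 0.11).

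ERF2, another GCC-box activator of defense genes, had no overlap between 2 and either other compound. Its counts with 2 in jaz9-1 were 107, 91.3 and 34.5, with 2e they were 344, 253 and 234 and with 12 they were 233, 240.0 and 226, over 175, 108 and 56.7 with mock. Both 2e and 12 lay above all libraries of 2 and mock. The log2 fold change was 1.32 (SE 0.27, adjusted p = 0.0033) with 2e and 1.08 (SE 0.27, adjusted p = 0.025) with 12, the second of which was lost without jaz9-1 mock replicate 3 (adjusted p = 0.23) and with the jaz9-1 libraries fitted alone (adjusted p = 0.16). With 2 it was -0.41 (adjusted p = 0.36). The difference was 1.73 (SE 0.28, adjusted p = 1.4e-05) between 2e and 2, and 1.49 (SE 0.28, adjusted p = 0.00015) between 12 and 2. In Col-0 the same counts were 155, 98.5 and 109 with mock and 198, 151 and 137 with 2. They were 518, 474 and 528 with 2e and 566, 468 and 518 with 12.

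Of the other ERF-type genes, ERF5, which lies next but one to ERF2 on the chromosome, and ERF104, which lies next to AT5G61590, had higher levels with 2e than with 2 in jaz9-1. The differences were 1.33 (SE 0.39, adjusted p = 0.015) for ERF5 and 1.15 (SE 0.35, adjusted p = 0.018) for ERF104, and the latter was lost without jaz9-1 2e replicate 2 (adjusted p = 0.12). With 12 the differences from 2 were 0.31 (adjusted p = 0.67) and 0.56 (adjusted p = 0.3), which did not pass the test. Against mock neither gene passed the test, with 0.67 (adjusted p = 0.62) and 0.84 (adjusted p = 0.35) for 2e and -0.35 (adjusted p = 0.84) and 0.26 (adjusted p = 0.88) for 12. AT5G61590, known as DEWAX, a repressor of wax synthesis, had 0.43 (adjusted p = 0.29) with 2e and 0.57 (adjusted p = 0.064) with 12. Its call with 12 was lost without jaz9-1 mock replicates 1 or 3 or 12 replicates 2 or 3 (adjusted p from 0.11 to 0.44) and with the jaz9-1 libraries fitted alone (adjusted p = 0.11). RAP2.9, an AP2/ERF family gene, had lower levels with 2e and 12 than with 2 in jaz9-1. There its counts were 37.8, 26.8 and 35.6 with mock, 116, 249 and 244 with 2, 80.3, 92.9 and 51.5 with 2e and 73, 78.8 and 45.4 with 12. It rose with 2 by 2.59 (SE 0.34, adjusted p = 4.0e-07), and 2e differed from 2 by -1.41 on the log2 scale (SE 0.31, adjusted p = 0.00095). Its rise with 2e, 1.18 (adjusted p = 0.0964), was lost without jaz9-1 mock replicates 1, 2 or 3 or 2e replicates 1 or 2 (adjusted p from 0.17 to 0.36) and with the jaz9-1 libraries fitted alone (adjusted p = 0.22). In Col-0 the counts were 114, 116 and 68.5 with 2 and 199, 137 and 274 with 2e. The list of ERF-branch regulators held 9 genes, of which 8 were tested and 4 are among the 76. In jaz9-1, 2 of the 8 were higher with 2e, 3 with 12 and 2 with 2, and 0 were lower with any compound.

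SIB2, a VQ-motif protein that binds WRKY33, and WRKY33, a WRKY factor needed for resistance to necrotrophic fungi, are both among the genes. In jaz9-1 SIB2 had 147, 207 and 142 with mock, 166, 154 and 128 with 2, 355, 324 and 202 with 2e and 329, 366 and 298 with 12. Its log2 fold change was 0.80 (SE 0.21, adjusted p = 0.047) with 2e and 0.98 (SE 0.21, adjusted p = 0.0064) with 12, and the first was lost without jaz9-1 mock replicates 1 or 3 or 2e replicates 1 or 2 (adjusted p from 0.21 to 0.26) and with the jaz9-1 libraries fitted alone (adjusted p = 0.101). It was higher with 2e than with 2 by 0.95 (adjusted p = 0.0016) and with 12 than with 2 by 1.13 (adjusted p = 0.00022). WRKY33 in jaz9-1 had 97.4, 84.5 and 113 with mock and 217, 119.7 and 119 with 2e, which gave 0.61 (adjusted p = 0.52). In Col-0 it had 53.9, 95.4 and 88.5 with mock and 175, 192 and 213 with 2e. MPK3, a mitogen-activated protein kinase of defense signaling named after its values were seen, rose with each compound in jaz9-1, by 0.79 (adjusted p = 0.0002) with 2e, 0.79 (adjusted p = 0.00019) with 12 and 0.83 (adjusted p = 7.8e-06) with 2. Its counts there were 329.9, 410.0 and 393 with mock and 774, 584 and 675 with 2. In jaz9-1 CNI1, a ubiquitin ligase of the carbon and nitrogen response, had 41.7, 30.9 and 47.4 with mock and 9.78, 0 and 26.6 with 2, a change of -1.87 (adjusted p = 0.048) that was lost without jaz9-1 mock replicate 3 or 2 replicates 1 or 2 (adjusted p from 0.12 to 0.19).

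The defense proteins, 8 genes, included PDF1.3, which had the largest ratio with 2e in Col-0. PDF1.3, a plant defensin, had 6.58, 6.16 and 9.06 with mock, 49.3, 63.4 and 45.5 with 2, 528, 424 and 954 with 2e and 289, 319 and 572 with 12 in Col-0. In jaz9-1 the counts were 7.95, 6.18 and 10.5 with mock, 10.7, 35.8 and 31.9 with 2, 29.4, 23.9 and 35.4 with 2e and 19, 43.8 and 8.44 with 12. The mean with 2e in jaz9-1 was 4.66% of that in Col-0. Its log2 fold change in jaz9-1 was 1.87 (SE 0.54, adjusted p = 0.092) with 2e and 1.49 (SE 0.60, adjusted p = 0.073) with 2. The call with 2e was lost without jaz9-1 mock replicates 1, 2 or 3 or 2e replicates 1, 2 or 3 (adjusted p from 0.11 to 0.34) and with the jaz9-1 libraries fitted alone (adjusted p = 0.58), and that with 2 without jaz9-1 mock replicates 1 or 2 or 2 replicates 2 or 3 (adjusted p from 0.13 to 0.31) and with the jaz9-1 libraries fitted alone (adjusted p = 0.18). With 12 it was 1.39 (adjusted p = 0.34).

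PDF1.2b, the neighbor of PDF1.3, had 5.26, 1.54 and 15.3 with mock, 38.1, 45.3 and 52.8 with 2, 362, 288 and 526 with 2e and 201, 197 and 482 with 12 in Col-0. In jaz9-1 it had 5.96, 12.4 and 0 with mock, 4.44, 51.9 and 29.2 with 2, 30.8, 6.71 and 8.46 with 2e and 10.2, 3.5 and 10.5 with 12. There the libraries of each treatment overlapped mock. Its change with 2e was 1.08 (adjusted p = 0.76) and with 2 1.91 (adjusted p = 0.087), the latter lost without jaz9-1 mock replicates 1 or 3 or 2 replicates 2 or 3 (adjusted p from 0.16 to 0.6) and with the jaz9-1 libraries fitted alone (adjusted p = 0.2). The coding sequences of PDF1.3 and PDF1.2b are 94.2% identical, and they are 91.4% and 93.8% identical, respectively, to that of the defensin gene AT5G44420, so the counts of single defensin genes are uncertain. Of 11 tested defensin genes in the list, 1 was higher with 2e in jaz9-1, 0 with 12 and 6 with 2, while 0, 1 and 3 were lower.

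PLA2A, a patatin-like lipid acyl hydrolase induced by pathogens, had 35.5, 32.3 and 22.3 with mock, 39.2, 29.7 and 24.3 with 2 and 320.4, 217 and 482 with 2e in Col-0. In jaz9-1 it had 11.9, 42.2 and 18.5 with mock, 17.8, 41.2 and 21.3 with 2, 50.9, 46.9 and 36.2 with 2e and 28.5, 70.1 and 46.4 with 12. The jaz9-1 libraries of all treatments overlapped mock, and the changes of 0.76 (adjusted p = 0.6) with 2e and 0.82 (adjusted p = 0.5) with 12 did not pass the test. PR4, a hevein-like chitin-binding protein, and the chitinase-family gene AT2G43590 rose with all 3 compounds in jaz9-1. PR4 had 1411, 1433 and 1082 with mock, 1229, 3283 and 3192 with 2, 3162, 2413 and 2069.6 with 2e and 3124, 3092 and 3033 with 12. Its changes were 0.96 (adjusted p = 0.0076), 1.23 (adjusted p = 0.0003) and 0.95 (adjusted p = 0.00091) with 2e, 12 and 2, and 1 of the libraries with 2 overlapped mock. Those of AT2G43590 were 1.5 (adjusted p = 2.2e-05), 1.4 (adjusted p = 5.8e-05) and 1.4 (adjusted p = 6.3e-06) in the same order. In Col-0 the ratios of AT2G43590 were 1.88, 1.7 and 0.54, and in jaz9-1 the difference between 2e and 2 was 0.10 (adjusted p = 0.8).

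The basic chitinase gene HCHIB and the osmotin gene OSM34 did not pass the test against mock, and their values here are from jaz9-1. HCHIB had 242, 198 and 258 with mock, 97.8, 272 and 231 with 2, 424, 261 and 322 with 2e and 386, 527 and 345 with 12. All its libraries with 2e and with 12 lay above mock, with changes of 0.53 (adjusted p = 0.54) and 0.84 (adjusted p = 0.13). It was higher than with 2 by 0.80 (adjusted p = 0.036) with 2e and 1.12 (adjusted p = 0.0034) with 12. The call of 2e against 2 was lost without jaz9-1 2 replicate 1 or 2e replicate 1 (adjusted p from 0.18 to 0.28). OSM34 had 77.5, 84.5 and 124 with mock, 238, 148 and 73.9 with 2e and 242, 191 and 148 with 12, changes of 0.64 (adjusted p = 0.68) and 1.02 (adjusted p = 0.29). Its libraries with 12 lay above mock, and those with 2e overlapped it. Of the 12 tested genes of the list of pathogenesis-related and antifungal proteins, 3 are among the 76, and 2 were higher with 2e, 2 with 12 and 6 with 2 in jaz9-1. None of the 12 was lower in these edgeR tests.

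The 4 glucosinolate genes are 3 of the aliphatic class and IGMT4. Glucosinolates are sulfur-rich defense compounds made from methionine (the aliphatic ones) or tryptophan (the indolic ones). In jaz9-1 all 4 were higher with 2e than with 2 and with 12 than with 2, and all 4 were lower with 2 than with mock. Of the 4, 3 were higher with 2e and 4 with 12 than with mock there. With 2 in Col-0, the log2 ratios to mock were 0.24 for CYP79F1, 0.35 for FMO GS-OX3, -0.22 for IPMI1 and -1.47 for IGMT4. In jaz9-1 CYP79F1, an enzyme in the synthesis of the aliphatic class, had 1705, 1676 and 1621 with mock, 961, 761 and 799.9 with 2, 2703, 3093 and 2517 with 2e and 3238, 3446 and 3182 with 12. No group overlapped another. The rise was 0.73 (SE 0.10, adjusted p = 1.1e-05) for 2e, that for 12 was 0.98 (SE 0.10, adjusted p = 4.0e-08), and it fell by 0.99 on the log2 scale with 2 (SE 0.10, adjusted p = 3.7e-09). The difference between 2e and 2 was 1.72 (SE 0.10, adjusted p = 1.3e-14). In Col-0 its counts were 747, 557 and 645 with mock, 761, 779.6 and 757 with 2, 1797, 1742 and 1739.9 with 2e and 2078, 1913 and 2083 with 12. All jaz9-1 mock libraries were above all Col-0 mock libraries.

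In jaz9-1 IPMI1, the small subunit of an isomerase of methionine chain elongation, had 1421, 1269 and 1522 with mock, 1003, 802 and 927 with 2, 2307, 2180.1 and 2207 with 2e and 2308, 2328 and 2074 with 12. Its changes were 0.67 (adjusted p = 3.0e-05) with 2e, 0.67 (adjusted p = 2.7e-05) with 12 and -0.63 (adjusted p = 9.0e-06) with 2. FMO GS-OX3, which oxidizes the sulfur of the side chain, had 215, 323 and 282 with mock and 116, 115 and 66.4 with 2 in jaz9-1. It had 356, 511 and 340.1 with 2e and 413, 561 and 407 with 12. It fell with 2 by 1.44 on the log2 scale (adjusted p = 1.6e-05), and the changes were 0.54 (adjusted p = 0.32) with 2e and 0.73 (adjusted p = 0.076) with 12, the latter lost without jaz9-1 mock replicates 1 or 3 or 12 replicates 1, 2 or 3 (adjusted p from 0.105 to 0.37) and with the jaz9-1 libraries fitted alone (adjusted p = 0.13). IGMT4, a methyltransferase of the indolic class named after its values were seen, had 537, 594 and 782 with mock, 458, 428 and 593 with 2 and 929, 912 and 828 with 2e in jaz9-1. There IGMT4 was higher with 2e than with 2 by 0.87 (adjusted p = 5.7e-06). Its rise over mock with 2e, 0.47 (adjusted p = 0.055), was lost without jaz9-1 mock replicates 1 or 2 or 2e replicates 1 or 2 (adjusted p from 0.17 to 0.38) and with the jaz9-1 libraries fitted alone (adjusted p = 0.22), and its fall with 2 without jaz9-1 mock replicate 3 or 2 replicate 2 (adjusted p from 0.15 to 0.28). It belongs to a tandem cluster of related genes, so its counts may not be separate. Over the list of aliphatic genes, of which 25 were tested and 3 are among the 76, 19 were higher with 2e in jaz9-1, 21 with 12 and 13 with 2, and 7 were lower with 2. Their medians were 0.61, 0.72 and 0.28. The list of indolic genes, 19 tested, does not hold IGMT4, and 11 of them were higher with 2e, 10 with 12 and 15 with 2, with 3 lower with 2 and a median of 1.83 there.

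Of the other 13 genes of specialized metabolism and transport, 4 were higher with 2e in jaz9-1 and 5 with 12, and 6 were higher and 2 lower with 2. AACT1, an acyltransferase whose window carries 2 GCC boxes, had 17.1, 67.7 and 59.9 with mock, 42, 20.7 and 33.4 with 2, 1137, 788 and 1382 with 2e and 839.5, 911 and 1208 with 12 in Col-0. In jaz9-1 it had 13.9, 59.7 and 47.4 with mock, 67.6, 134 and 71.8 with 2, 290.4, 98.7 and 134 with 2e and 165, 144 and 162 with 12. All 3 treatments lay above mock there. The changes were 1.96 (SE 0.39, adjusted p = 0.0024) with 2e and 1.85 (SE 0.39, adjusted p = 0.0044) with 12. That with 2, 1.03 (adjusted p = 0.077), was lost without jaz9-1 mock replicates 1 or 3 or 2 replicate 2 (adjusted p from 0.12 to 0.37). The difference between 2e and 2 was 0.93 (adjusted p = 0.067), lost without jaz9-1 2 replicates 1 or 3 or 2e replicate 1 (adjusted p from 0.17 to 0.53) and with the jaz9-1 libraries fitted alone (adjusted p = 0.12).

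AT1G15125, a methyltransferase of the S-adenosylmethionine-dependent superfamily, had the largest rise with 2e among the 76 genes in jaz9-1. Its counts were 7.95, 10.3 and 10.5 with mock, 32, 68 and 31.9 with 2, 115, 109 and 79.2 with 2e and 72.2, 47.3 and 78 with 12, and each treatment lay above mock. The changes were 3.35 (SE 0.37, adjusted p = 2.4e-07) with 2e, 2.75 (SE 0.38, adjusted p = 1.1e-05) with 12 and 2.13 (SE 0.40, adjusted p = 9.5e-05) with 2. The difference between 2e and 2 was 1.21 (SE 0.31, adjusted p = 0.0046). In Col-0 it had 14, 11.6 and 16.4 with 2 and 192, 139.5 and 178 with 2e.

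AT3G23550, a MATE-family efflux transporter, was raised most by 2 in jaz9-1. It had 35.8, 46.4 and 27.7 with mock, 545, 901 and 869 with 2, 146, 174 and 87.7 with 2e and 149.6, 140.2 and 179 with 12. The changes were 4.35 (SE 0.34, adjusted p = 2.9e-12) with 2, 1.85 (SE 0.35, adjusted p = 0.0012) with 2e and 2.07 (SE 0.34, adjusted p = 0.00023) with 12, and 2e differed from 2 by -2.49 on the log2 scale (SE 0.28, adjusted p = 2.5e-08). In Col-0 the libraries of 2, 272, 352 and 397, overlapped those of 2e, 574, 384 and 691. AT4G38540, an oxidoreductase-family gene, was the third gene lower with 2e than with 2, with a difference of -0.84 (adjusted p = 0.0023).

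Cytochrome P450 genes included 2 with uneven libraries in jaz9-1, the genotype of the counts given here. CYP71B22 had 0, 37.1 and 36.9 with mock, 3.56, 10.7 and 2.66 with 2, 64.2, 77.6 and 45.4 with 2e and 63.5, 24.5 and 38 with 12. It fell with 2, -2.25 (adjusted p = 0.018), and was higher with 2e than with 2 by 3.48 (SE 0.66, adjusted p = 0.00018). CYP71A12, an enzyme of indole-3-acetaldoxime metabolism on the way to camalexin, had 15.9, 4.12 and 23.7 with mock, 13.4, 6.71 and 13.1 with 2e and 57.6, 249 and 47.5 with 12. The change with 12, 3.01 (adjusted p = 0.074), was lost without jaz9-1 mock replicates 1, 2 or 3 or 12 replicate 2 (adjusted p from 0.11 to 0.46), and with 2e it was -0.34 (adjusted p = 0.97). CYP706A1, named after its values were seen, rose by 0.63 (adjusted p = 0.015) with 2e and 0.62 (adjusted p = 0.016) with 12, both lost without jaz9-1 mock replicate 1 (adjusted p = 0.18 and 0.17). With 2e it was also lost without jaz9-1 2e replicate 2 (adjusted p = 0.18), and with 12 without jaz9-1 12 replicate 2 (adjusted p = 0.11). The glutathione transferase genes GSTF2 and GSTF7 had changes with 2e of 0.57 (adjusted p = 0.37) and 0.28 (adjusted p = 0.89). The coding sequence of GSTF7 is 94.3% identical to that of AT1G02930, so its counts may not be separate.

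Among 7 receptor and kinase genes, 0 passed the test against mock with 2e or 12, and their medians were 0.39 and 0.50. In jaz9-1 AT3G04210, a gene of the TIR-NBS class of disease resistance proteins, had 0, 20.6 and 32.9 with mock, 2.67, 0 and 0 with 2, 20.07, 47.9 and 13.1 with 2e and 54, 40.3 and 54.8 with 12. Both 2e and 12 lay above 2, with differences of 4.18 (SE 0.95, adjusted p = 0.0015) and 5.07 (SE 0.92, adjusted p = 9.5e-05). Since 2 of its 3 libraries with 2 held no read, these fitted sizes depend on the prior count and are no bounds. Of the 4 lectin genes, AT1G78850, a mannose-binding lectin named after its values were seen, rose by 0.51 (adjusted p = 0.0081) with 2e and 0.72 (adjusted p = 6.1e-06) with 2. Its call with 2e was lost without jaz9-1 mock replicate 1 (adjusted p = 0.103). The coding sequence is 91.7% identical to that of its neighbor AT1G78860. The legume lectin gene AT3G16530 had 270.3, 586 and 373 with mock, 491, 1065 and 922 with 2 and 732, 579.5 and 645 with 2e in jaz9-1. It rose with 2, 0.95 (adjusted p = 0.0029), and had 0.64 (adjusted p = 0.27) with 2e.

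The remaining 28 genes included 3 that were higher with 2e in jaz9-1 and 2 with 12, with medians of 0.34 and 0.36. NADP-ME2, a cytosolic malic enzyme, had 2339, 2222 and 2308 with mock, 2067, 2218 and 2384 with 2, 3952, 3399 and 3515 with 2e and 3251, 3613 and 3474 with 12. The libraries of 2 overlapped mock, while all of 2e and 12 lay above both, and the changes were 0.66 (SE 0.10, adjusted p = 5.2e-05) with 2e and 0.59 (SE 0.10, adjusted p = 0.00027) with 12. PDC2, a pyruvate decarboxylase, rose by 0.80 (adjusted p = 0.0021) with 2e and 1.01 (adjusted p = 7.7e-06) with 2. SEN1, a gene of dark-induced senescence, rose by 1.37 (adjusted p = 0.014) with 2e, a call lost without jaz9-1 mock replicate 1 or 2e replicate 3 (adjusted p from 0.11 to 0.13). SEN1 also rose with 2 by 1.28 (adjusted p = 0.0034), and it had 0.78 (adjusted p = 0.32) with 12. These 3 were named after their values were seen. SUFE2, an activator of cysteine desulfurase, had 24.9, 75.2 and 29.2 with 2 and 126, 79.5 and 167 with 2e, a difference of 1.56 (adjusted p = 0.0065). The adjacent purine permease genes PUP7 and AT4G18205 belong to the 13 genes of specialized metabolism and transport and were named after their values were seen. They were higher with 2e than with 2 by 0.98 (adjusted p = 0.039) and 1.17 (adjusted p = 0.0054). Their coding sequences are 89.1% identical, and the call of PUP7 was lost without jaz9-1 2 replicates 1 or 2 (adjusted p from 0.12 to 0.16). Among all 76 genes, those with the lowest changes with 2e in jaz9-1 were CNI1 (-0.55), AT5G17370 (-0.44), AT1G23830 (-0.40), AT3G09020 (-0.39) and At17.1 (-0.37), and none of these 5 passed the edgeR test.

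**Figure D4:**
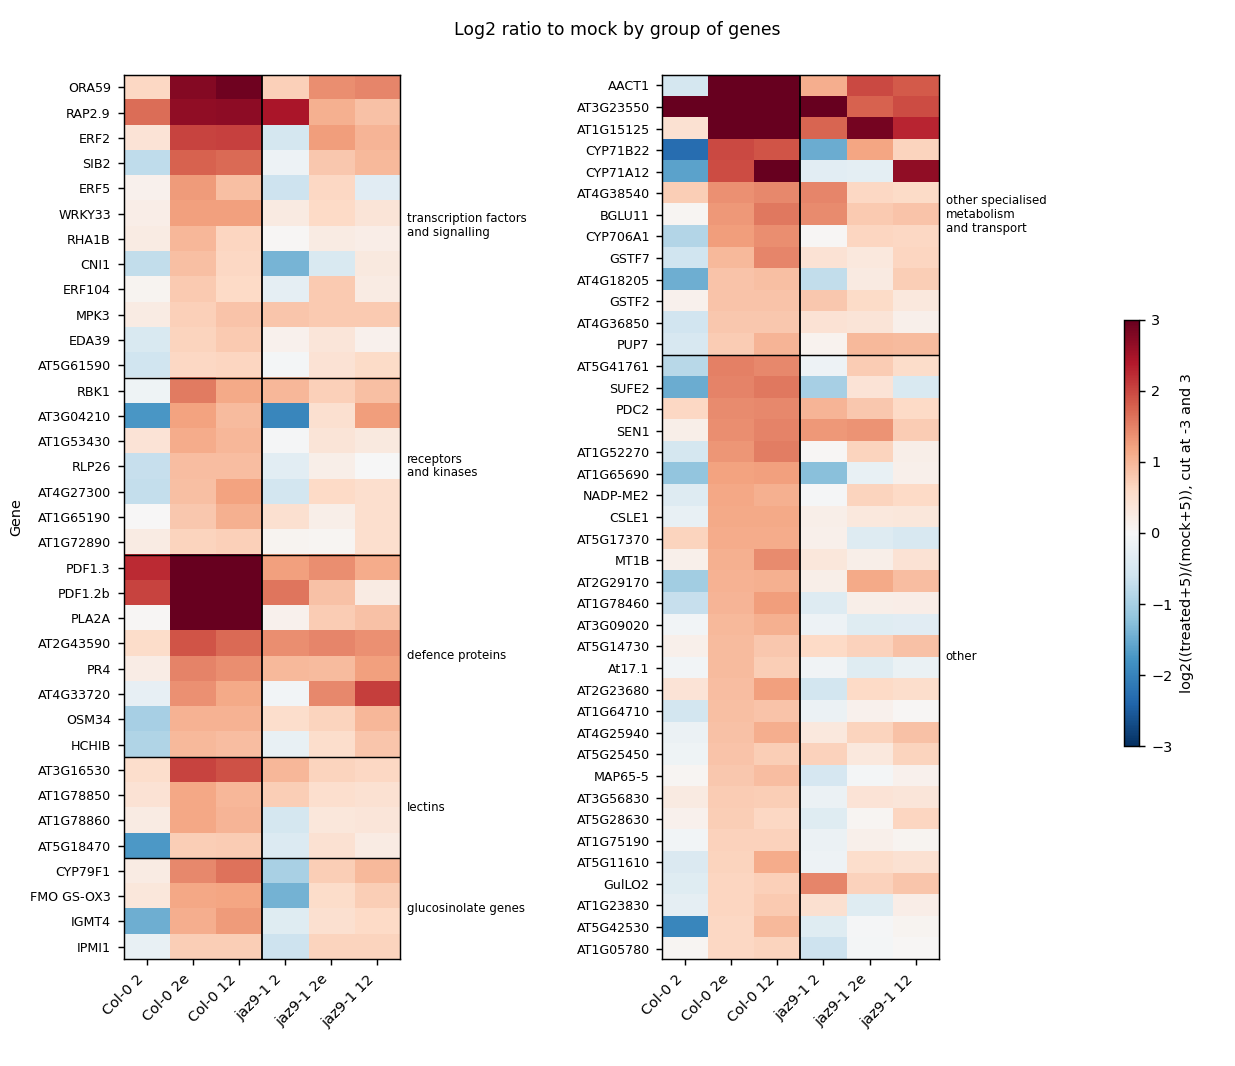
Log2 ratio of treated to mock (5 added to each mean) for each of the 76 genes (rows) with 2, 2e and 12 in Col-0 and jaz9-1 (columns), ordered by functional group, with colors cut at -3 and 3. The 4 glucosinolate genes are blue with 2 and red with 2e and 12 in jaz9-1. PDF1.3, PDF1.2b and PLA2A have lower ratios with 2e and 12 in jaz9-1 than in Col-0.

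For the other branches of the jasmonate response, the same tests in jaz9-1 gave more calls with 2 than with 2e or 12. None of the 12 JAZ repressor genes, 15 tested biosynthesis genes and 13 MYC-branch genes is among the 76. The rule required 2e and 12 to exceed 2 by 0.4, which disfavors genes that 2 raises strongly. As only 76 of 27416 genes were chosen, this absence does not set these lists apart. With 2, 10 JAZ genes, 14 biosynthesis genes and 12 MYC-branch genes were higher, with median log2 fold changes of 3.68, 3.17 and 4.22. With 2e these were 6, 10 and 6, with medians of 1.2, 0.72 and 0.82. With 12 they were 8, 9 and 5, with medians of 1.23, 0.99 and 0.40. Of 26 tested genes of ethylene synthesis and signaling, 2 were higher with 2e, 1 with 12 and 8 with 2, and 3 were lower with 2. These counts stand beside 1.73%, 2.01% and 14.9% of all tested genes that were higher with 2e, 12 and 2. The 76 genes were spread over all 5 nuclear chromosomes, with 21, 13, 10, 14 and 18 on chromosomes 1 to 5.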

How the data were processed

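Seedling RNA was sequenced by the authors on an Illumina instrument (the labels name the TruSeq and Lasy-Seq kits). The authors used Trimmomatic 0.39 for trimming, HISAT2 2.2.1 for alignment (maximum intron 5000) and featureCounts 2.0.1 for counting. The deposited counts are primary alignments per gene on strand setting 1 that overlap by at least 0.5 of a read, and a read over several genes adds to all of them. The normalized signal that was also deposited comes from DESeq2 1.30.1 in R 4.0.4, run by the authors, and scales every library by 1 size factor. Dividing it back gave whole reads for 100% of values within 0.01, equal to the counts. Each line has 8 more values with no header, which were left out.

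The 76 genes and all lists, motifs included, were chosen with earlier results of these data known. The rule was applied to the normalized table, and normalized counts in the text come from it. Counts were tested with edgeR 4.0.16 (limma 3.58.1, R 4.3.3), with 1 coefficient per group, all 24 libraries, TMM normalization and filterByExpr, which kept 20109 genes. The quasi-likelihood F-test was used, adjustment followed Benjamini and Hochberg across the 20109 genes, and genes with an adjusted p below 0.1 were called. Fold changes of jaz9-1 come from this model. The common biological coefficient of variation was 0.186. The code was tested on simulated data.

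Named genes are the 15 with the largest smaller ratio of 2e and 12 in Col-0, the 8 with the largest excess over 2, up to 6 per gene list, 3 on each side of the thresholds, and in jaz9-1 the 5 lowest with 2e and the 5 highest with 2. Others, AT4G38540 and AT4G33720 among them, were named after their values were seen. The labels name the build TAIR10. Names, windows and coordinates come from RefSeq TAIR10.1, by locus tag, which matched all 76 genes and 26719 of 27416 identifiers. Alternatives tried were RLE factors, DESeq2 1.42.0, no count filter, jaz9-1 libraries alone, a replicate block, an adjusted p below 0.05, at least 2.5-fold, and each library left out.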

Additional observations from a re-analysis of the deposited data

Results flagged for a closer look

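The libraries of CYP79F1 with 2 lay on opposite sides of mock in the 2 genotypes. In Col-0 its normalized counts were 747, 557 and 645 with mock and 761, 779.6 and 757 with 2, so that all 3 treated libraries were above mock. In jaz9-1 they were 1705, 1676 and 1621 and 961, 761 and 799.9, all 3 below mock, with a log2 fold change of -0.99. The difference between the genotypes was not tested, since the Col-0 libraries chose the gene. For AT5G17370, a WD40-repeat family gene, the libraries with 12 lay on opposite sides of mock, above it in Col-0, as the rule requires of the mean, and below it in jaz9-1, where the change did not pass the test. It had 25, 29.3 and 31.4 with mock and 51.3, 70.4 and 80.4 with 12 in Col-0, against 41.7, 60.8 and 43.5 and 35.8, 22.8 and 41.1 in jaz9-1, with a log2 fold change of -0.54 there (adjusted p = 0.7, edgeR). This difference was not tested either.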

How the results depend on the processing

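The number of genes was 76 by TMM-scaled CPM, 84 with a pseudocount of 1 and 184 with no minimum mean, and 68 to 94 with 1 Col-0 library left out, of which 64 to 74 were among the 76. Requiring 2.5-fold left 7 genes higher with 2e than mock in jaz9-1, 7 with 12 and 9 with 2, 5 lower with 2, 8 higher with 2e than with 2 and 10 with 12 than with 2. Without a count filter, CYP71A12 and AT4G33720 were lower with 2e than with 12 (2 genes, where the main test had 0), and the genes higher with 2e and 12 than mock were 27 and 30. With 1 library left out, the counts ranged from 12 to 18 (2e against mock), 14 to 19 (12), 15 to 23 (2 higher), 9 to 12 (2 lower), 20 to 27 (2e against 2), 22 to 27 (12 against 2) and 0 to 0 (2e against 12, each direction). Samples of jaz9-1 groups with the same replicate number did not deviate together (correlations of deviations from -0.02 to 0.07 in 18 pairs within jaz9-1), and other pairs were not examined. With the replicate number as a block these counts were 18, 20, 19, 12, 30, 24 and 0, and with DESeq2 19, 20, 18, 11, 27, 24 and 0. Of the calls against mock of the genes named by rule, the block lost that of RAP2.9 with 2e (log2 fold change 1.17) and added that of ORA59 with 2 (0.73). The further call lower with 2 lies outside these genes. With the jaz9-1 libraries alone the counts were 15, 15, 15, 11, 23, 20 and 0, with RLE factors 19, 20, 18, 11, 28, 24 and 0, and at an adjusted p below 0.05 they were 16, 16, 15, 10, 24, 21 and 0. The cause of these changes was not tested.

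Log2 fold changes against mock that turned sign had missed the main test. With 2, GSTF7 passed it without jaz9-1 2 replicate 1 and without the count filter. AT3G09020 with 2 passed it without jaz9-1 2 replicate 3 (adjusted p = 0.0497, edgeR). None of the others listed here passed in any setting tried. PLA2A with 2 was -0.01, and 0.059 in jaz9-1 libraries alone, 0.032 with the replicate block and 0.046 with DESeq2. With 1 library left out, the ranges with 2 were -0.46 to 0.71 for PLA2A, -0.48 to 0.83 for GSTF7, -0.59 to 0.045 for At17.1, -1.25 to 0.073 for CYP71A12, -0.39 to 0.49 for WRKY33, -0.26 to 0.065 for SIB2, -1.41 to 0.18 for AT3G09020, -0.62 to 0.11 for HCHIB, -0.17 to 0.86 for OSM34, -0.21 to 0.35 for AT5G17370 and -0.28 to 0.077 for AT5G61590. With 2e they were -0.49 to 0.56 for GSTF7, -0.69 to 0.0039 for AT1G23830, -0.88 to 0.34 for CYP71A12, -0.22 to 1.16 for AT3G04210 and -0.83 to 0.041 for AT3G09020. With 12 they were -0.10 to 0.59 for AT1G23830, -0.84 to 0.058 for SUFE2, -0.18 to 1.82 for PDF1.2b, -0.53 to 0.090 for AT3G09020 and -0.19 to 0.50 for ERF104.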
